A study of Rattus norvegicus with 9 samples.

Results

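The smooth muscle contractile apparatus is described here through 34 genes of the vessel wall. They were chosen by symbol, as coding for contractile, cytoskeletal and calcium-handling proteins of smooth muscle. All 34 were among the 37203 gene symbols of the count table, and all 34 passed the filter on low counts, which left 15482 genes to test.

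Superior mesenteric arteries (SMAs), the main feeding vessels of the small bowel, came from SD (Sprague-Dawley) rats at 8 weeks of age and 220 to 240 g. Normal rats were compared with rats at 1 h and at 4 h of ischemia, with 3 libraries in each group, to follow the vessel through the early and the late stage of ischemic injury. Ischemia was produced by bleeding anaesthetized rats through a catheter in a femoral artery, so blood was lost from the whole animal, and no tying of the mesenteric artery is described. RNA came from whole pieces of artery, in which smooth muscle of the media lies beside nerve, fat, endothelium and connective tissue. In such bulk samples fewer smooth muscle cells and less RNA per smooth muscle cell cannot be told apart.

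Smooth muscle shortens when myosin filaments pull on actin filaments that are anchored in dense bodies inside the cell and in adhesion plaques at its membrane. Calcium drives this through calmodulin and myosin light chain kinase, which phosphorylates the regulatory light chain, and myosin phosphatase reverses the step. In the mesenteric artery this tone sets the flow to the gut, and the genes of the apparatus are classic targets of serum response factor and its partner myocardin.

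Total counts ran from 13114273 to 15504240 per library, and levels are given as CPM, that is counts divided by library sizes that had been scaled by the TMM method (factors 0.814 to 1.22). The 8 defining smooth muscle markers, 6 of which are themselves members, were all present, at a summed level of 9687 to 58614 CPM. The libraries differed widely in markers of other cells. The summed level of 16 sympathetic neuron genes was 670, 38.5 and 399 CPM in normal replicates 1 to 3. It was 8979, 980 and 9193 CPM at 1 h and 38.0, 55.0 and 8941 CPM at 4 h. Replicates 1 and 3 at 1 h and replicate 3 at 4 h thus stood far above the other 6 libraries. The 7 Schwann cell genes were highest in normal replicate 1, at 3807 CPM against 218 to 2001 CPM in the others. The 7 adipocyte genes summed to 2641 CPM in that library, to 2283 and 2507 CPM in the 1 h replicates 1 and 3, and to 406 to 1196 CPM in the other 6. Endothelium summed to 507 to 1619 CPM, fibroblasts to 1720 to 4397 CPM, pericytes to 684 to 2731 CPM, leukocytes to 28.4 to 331 CPM and gut epithelium to 5.62 to 66.7 CPM. The striated muscle list summed to 28.6 to 206 CPM, most of it Acta1 and Ckm, and its defining fast myosins Myh1, Myh2 and Myh4 were at 0 or below 2.6 CPM in every library. The cardiac genes Myh6, Tnnt2 and Tnni3 reached 16.8, 23.4 and 14.7 CPM in the 1 h replicate 2 but no more than 2.76 CPM elsewhere.

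**Figure D1:**
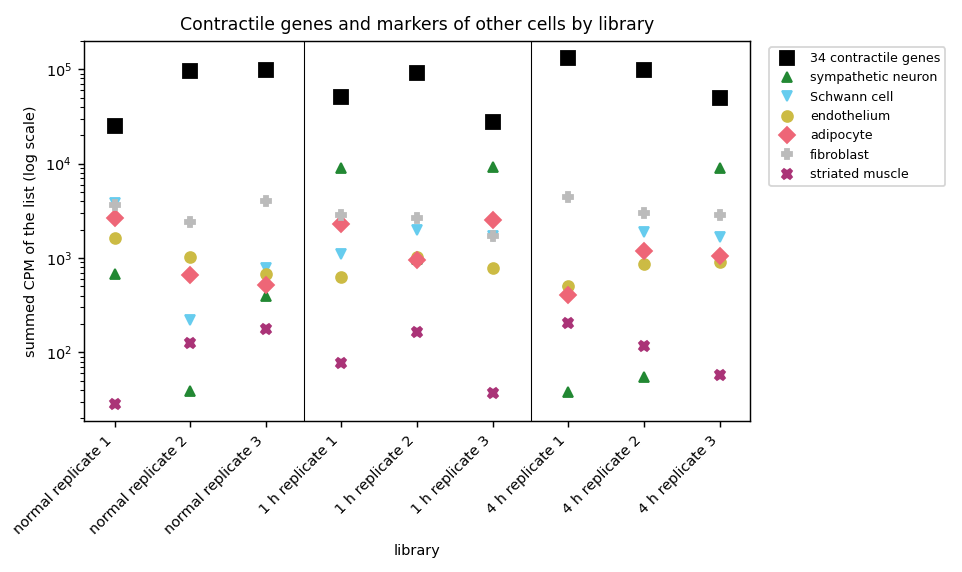
Summed CPM (log scale) of the 34 contractile genes and of markers of 6 other cell types in each of the 9 libraries, with 1 point per list and library and lines between the groups. The contractile sum was lowest in normal replicate 1, at 25134 CPM, and in replicate 3 at 1 h, at 27425 CPM, and neuron markers were at 8941 to 9193 CPM in 3 libraries.

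The contractile genes varied together between libraries of the same group. They took 2.95%, 10.1% and 8.87% of all counts in normal replicates 1 to 3, 5.16%, 8.82% and 3.34% at 1 h, and 10.7%, 8.44% and 5.39% at 4 h. Every group held a library with a low share, and the ranges of the 3 groups overlapped. The highest library exceeded the lowest by 2.41 to 9.29 times for a member, with a median of 5.25, against a median of 2.16 over the 9453 genes that averaged at least 10 CPM and had no 0. Within a group the median ratio of highest to lowest was 4.15 in normal rats, 3.28 at 1 h and 2.55 at 4 h. Normal replicate 1 held the lowest value for 21 of the 34 members, replicate 3 at 1 h for 12, and replicate 1 at 1 h for the remaining gene, Synm. Replicate 1 at 4 h held the highest value for 24 members, normal replicate 3 for 5, replicate 2 at 1 h for 3 and normal replicate 2 for 2. Libraries low in contractile counts were among those high in nerve or fat markers, and the part of those cells in the levels was not tested.

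**Figure D2:**
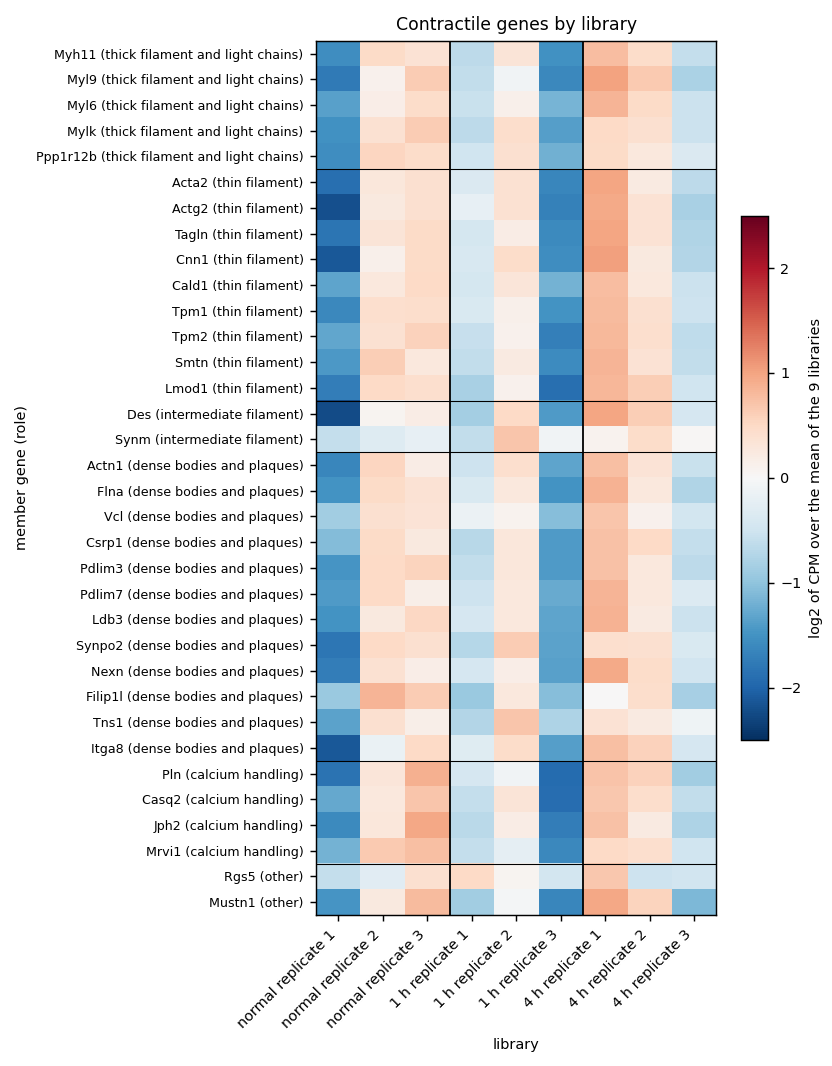
Heat map of the 34 genes (rows, ordered by role) in the 9 libraries (columns), coloured by log2 of CPM over that gene's mean of the 9 libraries. Normal replicate 1 and replicate 3 at 1 h are blue in nearly every row and replicate 1 at 4 h is red in nearly every row, while Synm and Rgs5 depart from the shared pattern.

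Promoters are shown, as a description only, for the members that held the CArG box, the element of serum response factor. RefSeq promoter windows (assembly GRCr8) were at hand for 28 of the 34 members, in 30 windows, and the 250 bases before each start were searched on both strands. No window was given for Myh11, Myl9, Tagln, Lmod1, Pdlim3 or Tns1. An exact CArG box lay in 1 of the 30 member windows (3.33%), that of Ldb3, and in 501 of all 33469 windows. When up to 1 G or C was allowed in its core, 3 of the 30 member windows (10%) held it, those of Acta2, Filip1l and Ldb3, beside 8.08% of all windows. The boxes began 134 and 84 bases before the start in Acta2, 226 bases before it in Filip1l and 52 bases before it in Ldb3. The MCAT motif, CATTCC or GGAATG on the other strand, which TEAD factors bind, was in 8 member windows (26.7%) and in 12.1% of all windows. Its members were Acta2, Cald1, Flna, Mrvi1, Mylk, Nexn, Tpm1 and Vcl. These matches describe letters in a short window and are not evidence of binding. The windows with a CArG box follow 5′ to 3′ on the gene's own strand, with the box in capitals. They lie on the minus strand at chr1:241172504-241172753 for Acta2, chr11:56646403-56646652 for Filip1l and chr16:9924680-9924929 for Ldb3.
Acta2: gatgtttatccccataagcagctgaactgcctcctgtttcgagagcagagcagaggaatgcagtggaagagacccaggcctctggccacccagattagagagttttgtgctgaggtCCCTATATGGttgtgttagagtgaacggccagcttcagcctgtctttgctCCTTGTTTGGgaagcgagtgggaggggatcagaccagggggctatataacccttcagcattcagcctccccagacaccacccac
Filip1l: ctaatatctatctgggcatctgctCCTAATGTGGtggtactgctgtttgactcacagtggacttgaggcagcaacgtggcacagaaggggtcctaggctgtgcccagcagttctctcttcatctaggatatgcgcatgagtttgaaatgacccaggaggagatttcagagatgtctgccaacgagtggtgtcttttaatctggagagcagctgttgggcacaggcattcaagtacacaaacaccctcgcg
Ldb3: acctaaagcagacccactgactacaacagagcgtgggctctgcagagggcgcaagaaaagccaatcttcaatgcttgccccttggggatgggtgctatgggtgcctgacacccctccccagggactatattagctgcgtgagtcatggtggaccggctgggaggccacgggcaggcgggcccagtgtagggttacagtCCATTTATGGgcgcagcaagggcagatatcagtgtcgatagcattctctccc

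No contractile gene passed the test at 1 h of ischemia. Relative to normal rats 31 of the 34 fitted log2 fold changes lay below 0, with a median of -0.38 and a range from -0.995 to 0.47, while 49.4% of all genes tested lay above 0 and their median was -0.0076. The edgeR quasi-likelihood test at an adjusted p under 0.05 and a fold over 1.5 called 0 of the 34, against 9 of the 15482 genes (0.0581%). At an unadjusted p under 0.05 it again found 0 of 34, against 16.7% of all genes, and DESeq2 called 0. The 3 libraries at 1 h lay wholly above or below the 3 normal ones in CPM for 0 members and for 26.3% of all genes. The smallest adjusted p among the members was 0.355. Standard errors were 0.35 to 0.77 on the log2 scale, so changes over 1.5-fold in either direction lay inside most intervals. The nerve gene level, a mean log2 CPM, was 5.96, 1.06 and 4.67 in normal rats and 7.85, 5.91 and 8.08 at 1 h. These groups barely overlapped in it, so a fit with it as covariate can hardly part nerve level from ischemia. With the nerve gene level of each library as a covariate, the median turned to 0.42 and 33 of 34 changes lay above 0. The median was 0.25 without the 3 neuron-rich libraries, which left 1 library at 1 h. In both of these fits 0 members were called. Leaving out single libraries moved the median to -0.86 (1 h replicate 2), -0.78 (normal replicate 1), -0.19 (normal replicate 2), -0.13 (normal replicate 3) or -0.10 (1 h replicate 3).

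At 4 h of ischemia 31 of the 34 changes lay above 0, with a median of 0.28 and a range from -0.41 to 0.83, while 52.3% of all genes lay above 0 and their median was 0.027. Again edgeR called 0 of 34, against 14 of all genes (0.0904%), and found 0 at an unadjusted p under 0.05, against 12.4% of all genes. DESeq2 also called 0. The 3 libraries at 4 h lay wholly above the normal ones in CPM for 1 member, Synm, while groups were apart in either direction for 18.7% of all genes. The smallest adjusted p was 0.544. The median turned to -0.10 when normal replicate 1 was left out and to -0.081 when the 4 h replicate 1 was left out, so its direction rested on each of these libraries. It was 0.54, 0.57 and 0.60 when normal replicate 2, normal replicate 3 and the 4 h replicate 3 were dropped in turn.

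Between 1 h and 4 h, 33 of 34 changes lay above 0, with a median of 0.68 and a range from -0.078 to 1.11. Of all genes 46.4% lay above 0, and their median was -0.040. The number of genes called by edgeR was 0 (0%), and 0 members passed at an unadjusted p under 0.05, against 2.58% of all genes. DESeq2 called 0 as well. The groups were apart in CPM for 0 members and 6.24% of all genes. With the nerve covariate the median was -0.10, and it was 0.32 without the 3 neuron-rich libraries. It moved to 1.19 when the 1 h replicate 2 was left out and to 0.97 without the 4 h replicate 3. It fell to 0.35 without the 1 h replicate 3 and to 0.33 without the 4 h replicate 1. Across all 3 groups edgeR called 0 members and 6 genes in all (0.0388%). The contrasts of 1 h and of 4 h share the same normal libraries and are not independent of each other. Members also varied together between libraries, so the signs counted among them are not independent observations.

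**Figure D3:**
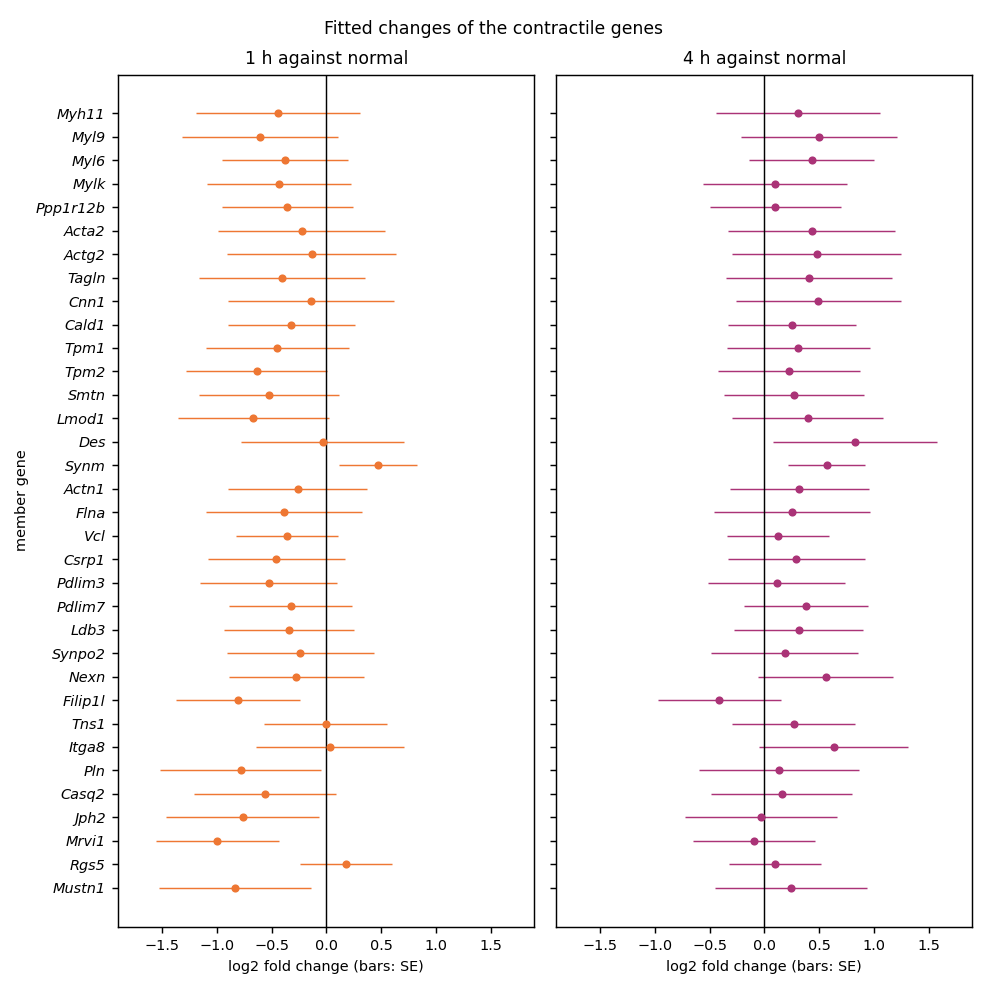
Fitted log2 fold changes of the 34 genes (rows) at 1 h and at 4 h of ischemia against normal rats, with bars of 1 SE. Most points lie left of 0 at 1 h and right of 0 at 4 h, 0 of the 34 passed the test in either contrast, and Synm has the shortest bars.

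The myosin motor and the enzymes that switch it followed the shared pattern. Myh11, the smooth muscle myosin heavy chain, was at 4693, 19247 and 17714 CPM in normal replicates 1 to 3, at 8723, 17090 and 4826 CPM at 1 h, and at 23515, 18919 and 9082 CPM at 4 h. The lowest value of each group fell in normal replicate 1, replicate 3 at 1 h and replicate 3 at 4 h, and all groups overlapped. Its log2 fold change was -0.44 (SE 0.75, 95% interval -2.16 to 1.27, edgeR adjusted p = 0.767) at 1 h and 0.31 (SE 0.75, interval -1.40 to 2.02, adjusted p = 0.893) at 4 h. From 1 h to 4 h it was 0.75 (SE 0.75, adjusted p = 0.856). With the nerve covariate these values turned to 0.50 at 1 h (edgeR adjusted p = 0.848) and -0.11 from 1 h to 4 h. Myl9, the regulatory light chain that the kinase phosphorylates, was at 879, 3224 and 4691 CPM in normal rats, 1948, 2835 and 984 CPM at 1 h, and 5991, 4735 and 1726 CPM at 4 h. It had the largest difference of all members between 1 h and 4 h, 1.11 on the log2 scale (SE 0.72, edgeR adjusted p = 0.856), with overlapping groups. With the nerve covariate that difference was 0.13. Myl6, the essential light chain, ranged from 705 to 3254 CPM. Its log2 fold change at 4 h was 0.43 (SE 0.57, edgeR adjusted p = 0.780) against normal and 0.81 (SE 0.58, adjusted p = 0.856) against 1 h. With the nerve covariate these changes were 0.43 and 0.050. Without normal replicate 1 the change against normal was 0.058. Mylk, the myosin light chain kinase, ranged from 832 to 3687 CPM, and Ppp1r12b, a targeting subunit of myosin phosphatase, from 398 to 1677 CPM. All 5 genes lay below normal at 1 h and above it at 4 h in the fit, with medians of -0.43 and 0.31, and 0 of the 5 passed. Myh11 overlaps the gene Nde1 on the opposite strand in mammals, and the strand used in counting is not given.

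The thin filament behaved in the same way. Acta2, the smooth muscle α-actin of arteries, was at 1801, 8053 and 8773 CPM in normal rats, 5189, 8632 and 2134 CPM at 1 h, and 13156, 7759 and 4221 CPM at 4 h. The highest 4 h library exceeded every other, but the other two lay among the normal and 1 h values. Its log2 fold change was -0.22 (SE 0.76, 95% interval -1.97 to 1.52, edgeR adjusted p = 0.890) at 1 h, 0.43 (SE 0.76, interval -1.32 to 2.18, adjusted p = 0.842) at 4 h, and 0.66 (SE 0.77, adjusted p = 0.856) from 1 h to 4 h. With the nerve covariate it turned to 0.72 at 1 h (edgeR adjusted p = 0.783) and to -0.25 from 1 h to 4 h. Actg2, the γ-actin typical of gut smooth muscle, ranged from 394 to 3505 CPM. The actins are closely alike in sequence, and the rule for reads that fit several genes is not given, so the split between Acta2, Actg2 and the striated Acta1 is uncertain. Tagln, the actin-binding protein SM22α, was at 2150, 9535 and 10638 CPM in normal rats, 5649, 8690 and 2539 CPM at 1 h, and 15202, 9858 and 4568 CPM at 4 h. Again the groups overlapped. Calponin (Cnn1) and caldesmon (Cald1), which restrain the actomyosin ATPase, ranged from 324 to 2857 CPM and from 741 to 3147 CPM. The tropomyosins Tpm1 and Tpm2, which run along the actin filament, ranged from 1053 to 5562 CPM and from 709 to 4066 CPM. Smtn, the contractile marker smoothelin, ranged from 319 to 1716 CPM. Lmod1, leiomodin, which nucleates actin filaments, was at 318, 1494 and 1403 CPM in normal rats, 599, 1138 and 287 CPM at 1 h, and 1870, 1606 and 748 CPM at 4 h. Its log2 difference between 4 h and 1 h was 1.06 (SE 0.69, edgeR adjusted p = 0.856), and 0.20 with the nerve covariate. The 9 thin filament genes had medians of -0.40 at 1 h and 0.39 at 4 h, all 9 with the same sign in each contrast, and 0 passed. As these genes varied together between libraries, their shared signs are not independent.

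**Figure D4:**
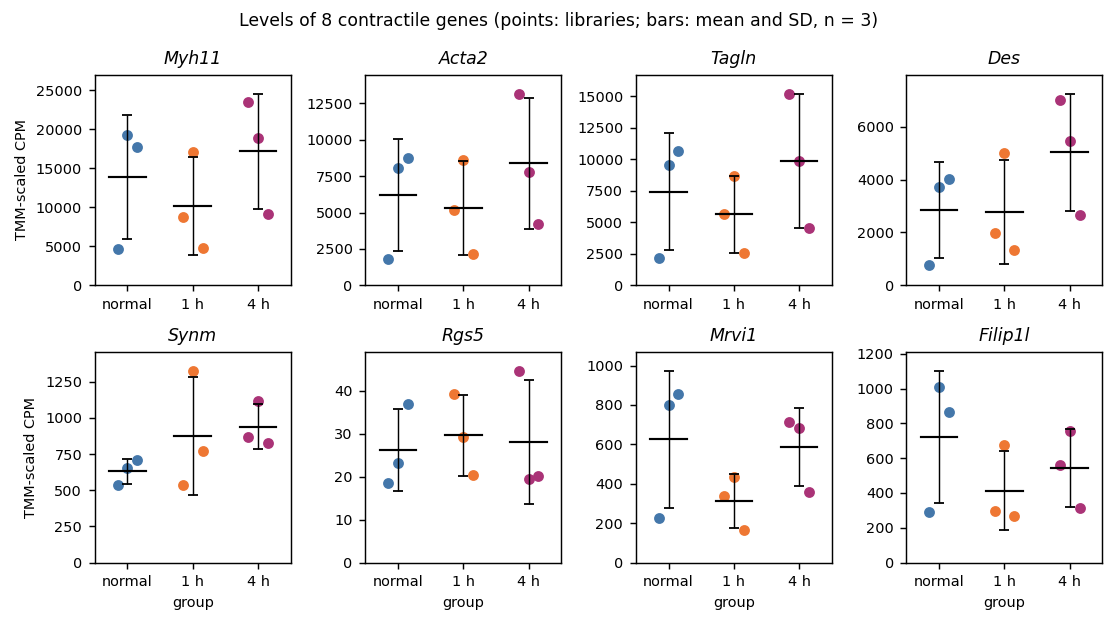
CPM of 8 members by group, with 1 point per library and bars for the mean and SD (n = 3). The points of Myh11, Acta2, Tagln and Des spread widely within each group, whereas the 3 Synm points at 4 h, from 829 to 1116 CPM, lie above the 3 normal points, from 537 to 706 CPM. Groups were apart in that contrast for 18.7% of all genes.

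The intermediate filament genes gave the only member whose groups were apart in CPM, 1 of 34 at 4 h against normal, beside 18.7% of all genes. Synm codes for synemin, which links desmin filaments to the plaques and is also made outside smooth muscle. It stood at 537, 653 and 706 CPM in normal rats, 533, 1325 and 768 CPM at 1 h, and 869, 1116 and 829 CPM at 4 h. All 4 h libraries were above all normal ones, and the 1 h libraries spanned both groups. Its log2 fold change was 0.57 (SE 0.35, 95% interval -0.24 to 1.38, edgeR adjusted p = 0.544) at 4 h and 0.47 (SE 0.35, adjusted p = 0.472) at 1 h, and neither passed. Synm was also the member with the smallest SE. Des, desmin, the main intermediate filament protein of muscle, was at 754, 3715 and 4039 CPM in normal rats, 1967, 5016 and 1329 CPM at 1 h, and 7007, 5453 and 2647 CPM at 4 h. Its libraries at 4 h reached above the normal range but their lowest value fell inside it. Its log2 fold change was 0.83 (SE 0.75, edgeR adjusted p = 0.668), the largest of the members at 4 h, and 0.38 without normal replicate 1.

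Of the 12 genes of dense bodies and plaques, 11 lay below normal in the fit at 1 h and 11 above it at 4 h, with medians of -0.34 and 0.28, and 0 passed. Filip1l, a filamin-interacting protein, was the exception at 4 h. It was at 293, 1008 and 867 CPM in normal rats, 295, 676 and 269 CPM at 1 h, and 561, 758 and 313 CPM at 4 h. The normal group held both of its highest values and a low one, so the groups overlapped. Its log2 fold change was -0.81 (SE 0.57, edgeR adjusted p = 0.444) at 1 h and -0.41 (95% interval -1.70 to 0.88, chosen for naming after its value was seen) at 4 h. The value at 1 h turned to 0.034 with the nerve covariate. Itga8, the α8 integrin chain of smooth muscle, was at 91.4, 352 and 558 CPM in normal rats, 324, 546 and 153 CPM at 1 h, and 665, 590 and 296 CPM at 4 h. At 4 h 2 libraries lay above every normal one and the other below 2 of them. Its log2 fold change there was 0.63 (SE 0.68, edgeR adjusted p = 0.720), and 0.18 without normal replicate 1. Nexn, the actin-binding nexilin, was at 228, 978 and 852 CPM in normal rats and 1461, 1033 and 542 CPM at 4 h. The log2 change of Nexn at 4 h was 0.56 (SE 0.62, edgeR adjusted p = 0.729), and 0.14 without normal replicate 1. The crosslinkers Actn1 (α-actinin) and Flna (filamin A) ranged from 293 to 1530 CPM and from 2656 to 13749 CPM. The plaque proteins Vcl (vinculin) and Tns1 (tensin) ranged from 315 to 1073 CPM and from 838 to 3437 CPM. Among the LIM-domain proteins Csrp1 ranged from 1938 to 8508 CPM, Pdlim3 from 96.1 to 443 CPM, Pdlim7 from 142 to 684 CPM and Ldb3 from 42.6 to 220 CPM, and the actin-binding Synpo2 ranged from 200 to 1083 CPM.

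The calcium-handling genes had the lowest median of any role at 1 h, -0.77, and a median of 0.051 at 4 h. Mrvi1 codes for the substrate through which cGMP-dependent protein kinase holds back calcium release by the inositol trisphosphate receptor. It was at 225, 797 and 853 CPM in normal rats, 338, 436 and 167 CPM at 1 h, and 716, 683 and 359 CPM at 4 h. All 1 h libraries lay below 2 of the normal ones, but the lowest normal library lay inside their range. Its log2 fold change of -0.995 at 1 h was the lowest of the members (SE 0.56, 95% interval -2.28 to 0.29, edgeR adjusted p = 0.355). From 1 h to 4 h it was 0.90 (SE 0.56, adjusted p = 0.856). With the nerve covariate these values shrank to -0.26 and 0.23. Jph2, junctophilin, which tethers the sarcoplasmic reticulum to the cell membrane, was at 74.3, 272 and 438 CPM in normal rats, 141, 254 and 67.6 CPM at 1 h, and 374, 261 and 132 CPM at 4 h. Its groups overlapped, and its log2 fold change at 1 h was -0.76 (SE 0.70, adjusted p = 0.563), which turned to 0.0095 with the nerve covariate. Pln, phospholamban, which inhibits the calcium pump of the reticulum, ranged from 117 to 820 CPM, and Casq2, the calcium store protein calsequestrin, from 30.7 to 186 CPM. These genes are also used by heart muscle. The library with cardiac genes, replicate 2 at 1 h, was the highest of its group for all 4, with Pln at 419 CPM and Casq2 at 144 CPM there. That was not particular to the calcium-handling genes. The same library was the highest of its group for Myh11, Acta2, Tagln and most other members, though not for Rgs5. The part of cardiac tissue in these levels was not tested.

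The other 2 members were apart from the filaments in function. Mustn1, a small nuclear protein of the musculoskeletal system, was at 91.4, 303 and 444 CPM in normal rats, 141, 247 and 82.4 CPM at 1 h, and 497, 378 and 118 CPM at 4 h. Its log2 fold change was -0.84 (SE 0.70, edgeR adjusted p = 0.521) at 1 h and 1.08 (SE 0.70, adjusted p = 0.856) from 1 h to 4 h, with overlapping groups. These values turned to 0.15 and -0.040 with the nerve covariate. Rgs5, which shortens signalling by G proteins and marks pericytes and arterial smooth muscle, was at 18.5, 23.1 and 37.0 CPM in normal rats, 39.3, 29.2 and 20.4 CPM at 1 h, and 44.6, 19.5 and 20.1 CPM at 4 h. It had the narrowest range of the members, 2.41 times from lowest to highest.

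When each gene was read as a percentage of the summed counts of the 34, which removes what they gained or lost together, the spread narrowed to a median of 1.56 times between the lowest and the highest library. The members themselves set this scale, so a narrow spread on it is built in, and over all genes the median was 6.01 times. Myh11 kept the steadiest share, 16.9% to 19.9% in the 9 libraries, a ratio of 1.18. As so large a part of the sum, it is held steady in part by construction. Pdlim3 followed with a ratio of 1.22 and Ldb3 with 1.23, then Flna, at 9.09% to 11.2%, and Tpm1, at 3.86% to 4.81%. Synm was the most variable, 0.659% to 2.80%, a ratio of 4.25, followed by Rgs5 with a ratio of 3.85 and Filip1l with 2.74. Synm took its largest shares, 2.80% and 2.14%, in replicate 3 at 1 h and normal replicate 1, the libraries with least contractile RNA.

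On this scale the libraries at 1 h lay wholly below the normal ones for 6 of the 34 genes, Mrvi1, Tpm2, Lmod1, Jph2, Mustn1 and Pdlim3, while groups were apart in either direction for 3.24% of all genes. Because members vary less than other genes on a scale they set, the members and the other genes cannot be set side by side directly. Mrvi1 took 0.896%, 0.826% and 0.866% in normal libraries, then 0.657%, 0.477% and 0.609% after 1 h and 0.543%, 0.695% and 0.730% after 4 h of ischemia. Tpm2 took 3.74%, 3.14% and 3.51% in normal libraries, then 3.03%, 2.74% and 2.58% at 1 h, and 3.08%, 3.18% and 3.03% at 4 h. Mrvi1 was thus below normal in all 6 ischemia libraries, and Tpm2 was below it in the 3 at 1 h with 1 library at 4 h inside the normal range. Lmod1 took 1.27%, 1.55% and 1.42% in normal libraries, then 1.16%, 1.25% and 1.04% at 1 h, and 1.42%, 1.63% and 1.52% at 4 h. Its share was lower at 1 h than in both other groups, but the highest 1 h value, 1.25%, nearly met the lowest normal one, 1.27%. With libraries scaled on the members alone, the log2 fold change of Lmod1 at 1 h was -0.26 (SE 0.41).

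At 4 h 5 members were apart from normal in their share, against 6.23% of all genes, with Mrvi1, Filip1l and Pdlim3 lower and Des and Nexn higher. Des took 3.00%, 3.85% and 4.10% in normal libraries, then 3.82%, 5.49% and 4.84% after 1 h and 5.31%, 5.55% and 5.37% after 4 h of ischemia. The 4 h libraries were close together and all above normal. Filip1l took 1.17%, 1.04% and 0.880% in normal libraries and 0.425%, 0.771% and 0.636% at 4 h. Pdlim3 took 0.382%, 0.388% and 0.397% in normal libraries, then 0.338%, 0.355% and 0.363% at 1 h, and 0.336%, 0.325% and 0.341% at 4 h, a small difference in a gene that varied little. Nexn took 0.906%, 1.01% and 0.865% in normal libraries and 1.05% to 1.11% at 4 h. Between 1 h and 4 h, 2 members, Lmod1 and Smtn, were apart and higher at 4 h, against 2.38% of all genes. With 3 libraries a group an exact permutation test cannot go below p = 0.1 for any of these shares. When the edgeR test was run with libraries scaled on the members alone, 0 of 34 were called and 0 had an unadjusted p under 0.05 in any contrast. In that fit the log2 fold change was 0.62 for Des at 4 h (SE 0.35, adjusted p = 0.793) and -0.54 for Mrvi1 at 1 h (adjusted p = 1.00).

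**Figure D5:**
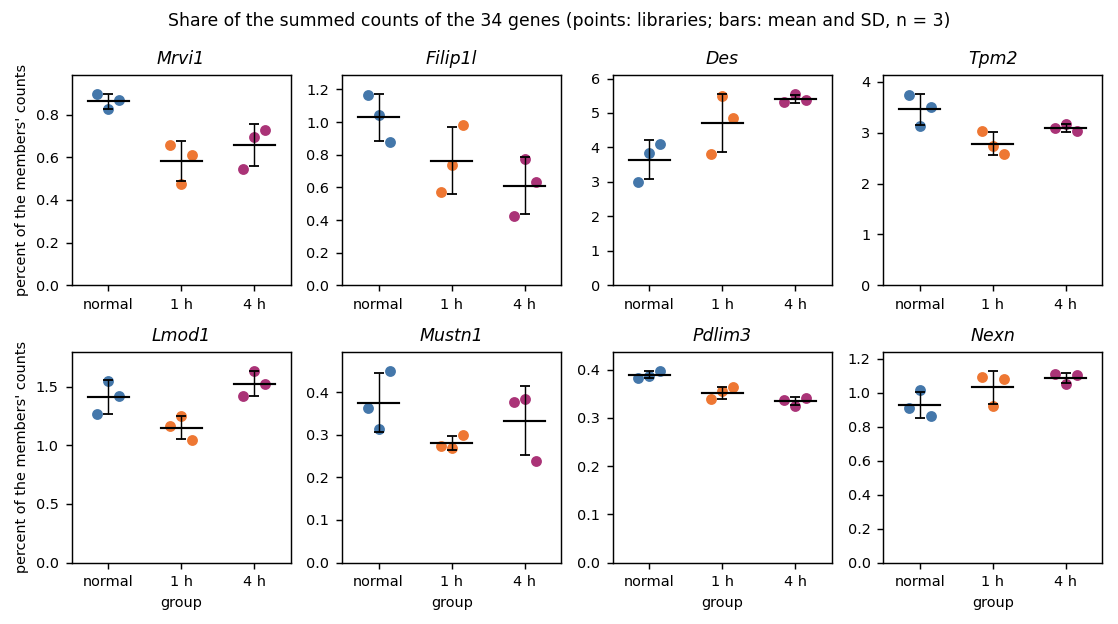
Share of 8 members in the summed counts of the 34 genes, in percent, with 1 point per library and bars for the mean and SD (n = 3). Mrvi1 and Pdlim3 lie lower in all 6 ischemia libraries than in the 3 normal ones, and Des lies at 5.31% to 5.55% at 4 h against 3.00% to 4.10% in normal libraries. Against normal, groups were apart on this scale for 3.24% of all genes at 1 h and 6.23% at 4 h. The members set the scale, so they and other genes cannot be set side by side directly.

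Genes that act on the apparatus without being members were counted from lists, to be read against the 16.7% of all genes at 1 h, 12.4% at 4 h and 2.58% between 1 h and 4 h that had an unadjusted p under 0.05. Of 15 regulators of myosin phosphorylation, 0 were called in any contrast by edgeR, and 1 had an unadjusted p under 0.05, a share below that of all genes. It was Arhgef1, a guanine nucleotide exchange factor, at -0.50 on the log2 scale at 1 h (SE 0.19, adjusted p = 0.278). Arhgef1 was at 152, 135 and 110 CPM in normal rats and at 87.4, 105 and 88.2 CPM at 1 h. Ppp1r14a, the inhibitor of myosin phosphatase known as CPI-17, was at 81.4, 347 and 351 CPM in normal rats, 156, 212 and 58.4 CPM at 1 h, and 484, 328 and 132 CPM at 4 h, with its lowest values in normal replicate 1 and replicate 3 at 1 h, as for most members. Of 11 nonmuscle and other filament isoforms tested, 0 were called and 0 reached an unadjusted p under 0.05. Among them the nonmuscle myosin Myh10 was at 57.3, 82.1 and 101 CPM in normal rats and at 232, 79.4 and 171 CPM at 1 h, with the high values in the libraries rich in neuron genes. Of 23 adhesion and dystrophin complex genes 0 were called, and 1 of 23 at 1 h and 1 of 23 at 4 h reached an unadjusted p under 0.05, again a smaller share than over all genes. They were Parva, the actin-binding α-parvin, at 1 h (log2 fold change 1.40, SE 0.57, adjusted p = 0.288) and Ptk2, focal adhesion kinase, at 4 h (0.65, SE 0.26, adjusted p = 0.358). In the neuron-rich libraries Parva was at 221 and 199 CPM (1 h) and 251 CPM (4 h), and in the other 6 it was at 51.8 to 102 CPM. Of the 7 regulators of the smooth muscle programme tested, 0 were called and 0 reached an unadjusted p under 0.05. Srf, serum response factor itself, was at 76.3, 159 and 200 CPM in normal rats, 92.0, 159 and 71.5 CPM at 1 h, and 165, 145 and 92.4 CPM at 4 h, again lowest in the libraries with little contractile RNA. Tead1, which binds the MCAT motif, was at 138, 129 and 135 CPM in normal rats, 142, 219 and 153 CPM at 1 h, and 141, 120 and 131 CPM at 4 h. Its 1 h libraries all lay above the normal ones, while groups were apart in either direction for 26.3% of all genes in that contrast. The log2 fold change of Tead1 was 0.35 (SE 0.20, edgeR adjusted p = 0.355), which did not pass.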

How the data were processed

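The authors deposited raw counts per gene symbol for 9 libraries, as whole numbers. HISAT2 is named in the submitters' processing notes without a version, while the counting program, the genome build, the annotation and the use of strand are not given in the sources used here. The methods of the study also describe microarrays, and their count of individuals does not say whether conditions shared animals. They do state that rats were killed at the end of ischemia and the artery was then taken. The libraries were treated as separate rats, since the series lists 3 rats a group, and p-values measure the spread between these libraries. No library was a copy of another (lowest chi-square per degree of freedom 29.9).

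The members and lists were chosen with earlier results of these data known. Counts were filtered with filterByExpr, scaled by TMM and fitted in edgeR 4.0.16 (R 4.3.3) with the quasi-likelihood test on all 9 libraries with group as the only term, with Benjamini-Hochberg adjustment across the 15482 genes. Calls needed an adjusted p under 0.05 and a fold over 1.5. The SE is the log2 fold change over the square root of F, and intervals are 95%. Alternatives used DESeq2 1.42.0, other scalings, no filter, fewer libraries, a replicate block and a nerve covariate, the mean log2 CPM (prior count 2) of 23 sympathetic neuron and Schwann cell genes. The statistics were tested on simulated data. Every member is named. Folds with errors are given for Myh11, Acta2 and the 5 members with the smallest p in each contrast, and pathway genes were drawn from the 3 with the smallest p in each list. Errors cover counting and the spread between libraries within groups. That spread was estimated from all 9 libraries and shared by the 3 groups, with a common biological coefficient of variation of 51.6%. Groups were taken from the labels.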

Additional observations from a re-analysis of the deposited data

How the results depend on the processing

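In the 4 tests, under each of the 18 alternatives that could be run, 0 of the 34 members were called, also with DESeq2, which called 702 genes at 1 h and 606 at 4 h against 9 and 14 with edgeR. At most 1 member had an unadjusted p under 0.05 in any of them. The direction of the median was less steady. Without single libraries it ranged from -0.86 to -0.10 at 1 h, from -0.10 to 0.60 at 4 h and from 0.33 to 1.19 between 1 h and 4 h. Scaled by library size alone, the medians were -0.35, 0.11 and 0.48, while all genes together had a median of -0.15 at 4 h and -0.24 between 1 h and 4 h. With the nerve covariate they were 0.42, 0.37 and -0.10. Its level barely overlapped between normal and 1 h libraries, and the cause of the turn was not tested. In that fit the log2 fold change at 1 h was 0.50 for Myh11, 0.72 for Acta2, 0.034 for Filip1l, 0.15 for Mustn1 and 0.0095 for Jph2. Between 1 h and 4 h it was -0.11 for Myh11, -0.25 for Acta2 and -0.040 for Mustn1. Changes that kept their sign moved too, at 1 h to -0.26 for Mrvi1 and to 0.70 for Synm. Between 1 h and 4 h they moved to 0.23 for Mrvi1, 0.13 for Myl9, 0.20 for Lmod1 and 0.050 for Myl6. Without the 3 neuron-rich libraries, an alternative chosen after seeing the data, Myh11 was at 0.29 and Acta2 at 0.47 at 1 h, where the lone library was assumed to vary like the others. With TMM over the members alone Acta2 was at 0.20 at 1 h and -0.033 between 1 h and 4 h, as a change relative to the other members. Without single libraries Acta2 ranged from -0.76 to 0.12 at 1 h and from -0.084 to 0.77 at 4 h, and Myh11 from -0.11 to 0.61 at 4 h. A replicate block on the numbers of the labels left 0 members called, with medians of -0.49, 0.28 and 0.79. Deviations of same-numbered libraries correlated from -0.65 to 0.66. Libraries with different numbers were not set beside them, so whether the numbers pair the samples was not decided.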
